A study of Mus musculus with 14 samples.

Results

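Binding of PRDM16, a zinc-finger transcription factor, was mapped by chromatin immunoprecipitation and sequencing (ChIP-seq) at the genes of the cardiac thick filament. The genes were the myosin heavy chains Myh6 and Myh7, the myosin light chains Myl2, Myl3, Myl4 and Myl7, and Mybpc3. A wild-type (WT) PRDM16 peak was counted for a gene when that gene was the nearest protein-coding gene to the peak summit, by distance to the gene body on GRCm38. By this rule 34 of 17587 WT peaks belonged to the 7 genes, with 9 at Myh7, 7 at Myl2, 5 each at Myh6 and Myl4, 4 at Myl7, 3 at Myl3 and 1 at Mybpc3. At 4 of the 34 the summit lay inside another gene too, Ccdc63 for 3 peaks of Myl2 and Cdc27 for 1 peak of Myl4. Myh7, Myl2 and Myl3 were taken as ventricular genes and Myh6, Myl4 and Myl7 as atrial genes, while Mybpc3 was kept apart.

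The samples were ventricles of C57BL/6 mouse embryos at E13.5 (embryonic day) with the atria removed. WT embryos, whose genetic manipulation is labelled Mock, and embryos with a conditional knockout of Prdm16 (Prdm16cKO) each gave libraries of whole ventricles, with 3 hearts pooled per library (2 WT libraries and 1 knockout library). Left ventricles (LV) and right ventricles (RV) dissected from WT embryos were each represented by 2 PRDM16 libraries, with 10 to 12 ventricles pooled per library. Each PRDM16 library had an input library without antibody, 14 samples in all. Neither the Cre driver nor the alleles of the knockout are given in the sources used here. Peaks called in WT and in knockout ventricles were deposited, with LV and RV signal for each WT peak, and transcript levels of the genes were not measured.

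Myosin heavy chains are the motors of the thick filament, and each binds an essential and a regulatory light chain at its neck. In the mouse ventricle Myh7 is the heavy chain of the embryo and Myh6 that of the adult, and the genes lie next to each other on a single chromosome. Myl2 and Myl3 encode the regulatory and essential light chains of the ventricle, and Myl7 and Myl4 those of the atrium, although Myl4 and Myl7 are also active in the early ventricle. Mybpc3 encodes cardiac myosin-binding protein C, which links to the thick filament in atrium and ventricle and is often mutated in hypertrophic cardiomyopathy.

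All 7 genes had a WT peak over a promoter window, and the strength of that peak ranged widely. The windows run from 250 bases before to 50 bases after a gene start in a RefSeq table of GRCm38.p6, which held 9 windows for the 7 genes. Of the 17492 protein-coding genes with a window, 1617 (9.24%) had a WT peak over one. Fold enrichment, the ratio of ChIP to background given by the authors' peak caller, was 21.0 at the promoter of Myl2, 10.2 at Mybpc3, 7.41 at Myl3, 6.65 at Myh6, 5.87 at Myh7, 3.95 at Myl4 and 2.28 at Myl7. The promoter peak of Myl7 had a -log10 q of only 1.31, and would be lost at a threshold of 5. The summit lay 13 bp before the listed start of Myh6, 25 bp before that of Myl3, 88 bp before that of Myl7, 105 bp before that of Mybpc3 and 108 bp before the second listed start of Myl2. At Myl4 it lay 262 bp before the start, inside Cdc27 as well, and at Myh7 243 bp after the first listed start. A promoter here means the window of a listed start. Starts that the table does not list were not used here. Whether peaks inside a gene, such as those of Myl2 and Myl4, lie at an unlisted start was not examined. The 250 bases before the start are shown for the windows that hold a summit, and for Myh7, whose window the peak covers. They lie at chr14:54994627-54994876 (Myh7, minus strand), chr5:122092939-122093188 (Myl2, plus strand, second listed start), chr9:110763428-110763677 (Myl3, plus strand), chr14:54966608-54966857 (Myh6, minus strand), chr11:5898783-5899032 (Myl7, minus strand) and chr2:91117894-91118143 (Mybpc3, plus strand). Capitals mark matches to GATA, TEAD, TATA, MEF2 and CArG motifs on either strand.
Myh7: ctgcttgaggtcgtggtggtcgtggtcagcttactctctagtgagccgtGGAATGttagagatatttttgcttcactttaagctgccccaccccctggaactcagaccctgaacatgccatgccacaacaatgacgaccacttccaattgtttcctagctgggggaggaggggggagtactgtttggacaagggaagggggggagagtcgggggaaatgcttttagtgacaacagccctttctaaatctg
Myl2: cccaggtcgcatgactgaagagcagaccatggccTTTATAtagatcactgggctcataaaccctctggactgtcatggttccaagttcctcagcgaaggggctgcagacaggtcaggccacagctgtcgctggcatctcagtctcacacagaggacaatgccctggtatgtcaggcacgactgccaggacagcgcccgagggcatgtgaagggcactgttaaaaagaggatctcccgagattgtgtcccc
Myl3: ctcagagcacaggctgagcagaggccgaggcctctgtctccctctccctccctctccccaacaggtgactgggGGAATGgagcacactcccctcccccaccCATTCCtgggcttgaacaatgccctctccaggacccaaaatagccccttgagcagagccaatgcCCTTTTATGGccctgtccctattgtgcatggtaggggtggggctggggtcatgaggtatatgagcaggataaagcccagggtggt
Myh6: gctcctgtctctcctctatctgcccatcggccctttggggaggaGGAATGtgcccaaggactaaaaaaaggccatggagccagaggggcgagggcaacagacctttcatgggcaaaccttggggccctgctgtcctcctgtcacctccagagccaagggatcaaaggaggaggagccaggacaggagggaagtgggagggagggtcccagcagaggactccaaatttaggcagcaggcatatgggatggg
Myl7: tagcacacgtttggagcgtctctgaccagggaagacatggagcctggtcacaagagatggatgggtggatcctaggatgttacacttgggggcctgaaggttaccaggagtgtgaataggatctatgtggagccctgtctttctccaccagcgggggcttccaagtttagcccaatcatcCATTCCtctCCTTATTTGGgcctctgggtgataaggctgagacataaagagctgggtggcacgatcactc
Mybpc3: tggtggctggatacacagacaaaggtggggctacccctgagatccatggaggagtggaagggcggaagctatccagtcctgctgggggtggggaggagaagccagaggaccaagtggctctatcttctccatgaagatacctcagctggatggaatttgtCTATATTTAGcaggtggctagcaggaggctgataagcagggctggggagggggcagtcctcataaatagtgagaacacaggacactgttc

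The motif of the TEAD factors (CATTCC), which act with YAP in growth of heart muscle, was present before a start of Myh6, Myh7, Myl3 and Myl7. It occurred in 4 of the 9 member windows and in 12.6% of 32851 windows of 250 bases in the RefSeq table. The CArG box, the site of serum response factor, was present at Myl3 and Myl7 (2 of 9 windows), against 1.47% of all windows. It began 85 bases before the start of Myl3 and 61 bases before that of Myl7. These promoters had peaks of fold 7.41 and 2.28. Neither listed window of Myl2, where the peak over a window was strongest, held the motif. Sequence before any unlisted start of Myl2 was not examined. The MEF2 site, named for a muscle activator, was present at Mybpc3 alone (2.92% of all windows), 90 bases before the start. The GATA motif (AGATAA) and the TATA box (TATAAA) were each present in a window of Myl2 (9.99% and 12.4% of all windows). The GATA match began 211 bases before the first listed start. The TATA match, on the opposite strand, began 216 bases before the second. No member window held the T-box motif (AGGTGT), which 11.8% of all windows had. The short NK2 motif (AAGTG) was present in 6 of 7 genes and the E-box (CANNTG) in 6 of 7. Counted by window they were present in 7 of 9 and 8 of 9, against 40.7% and 66.2% of all windows. Matches on both strands were counted, motifs may overlap, and a match describes these letters only.

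At the heavy chain genes PRDM16 peaks lined a stretch of 59.3 kb on chromosome 14 with 14 peaks. The strongest, at 54996662 to 54997496, had a summit 2340 bp before the start of Myh7. Its fold enrichment was 23.5, the value ranked 10 among 17587 WT peaks, with a -log10 q of 176. A broader peak lay further upstream, 10196 bp before the start, with a fold of 7.38 over 2335 bp, the width ranked 4 of all WT peaks. Inside Myh7 and over its start 5 peaks had folds from 2.70 to 5.87, the last over the promoter. Between Myh7 and Myh6 lie 2666 bp, and 3 peaks had their summit there. They included the strongest peak of Myh6, at 54968155 to 54969532, with a fold of 11.8 and a summit 856 bp from Myh6, 1811 bp from Myh7 and 86 bp from the start of Mhrt, a long noncoding RNA transcribed opposite to Myh7. Peaks of fold 3.41 and 5.56 lay between the genes as well, 920 and 513 bp past the end of Myh7. Their nearest gene was Myh7, so they count as ventricular peaks. The promoter peak of Myh6 (54966148 to 54967404) had a fold of 6.65 and a width of 1257 bp. The other 3 peaks of Myh6 lay inside the gene, with folds of 4.58, 3.77 and 2.70. No WT peak covered the microRNA genes inside the heavy chain genes: the nearest lay 2355 bp from Mir208a and 1771 bp from Mir208b.

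**Figure D1:**
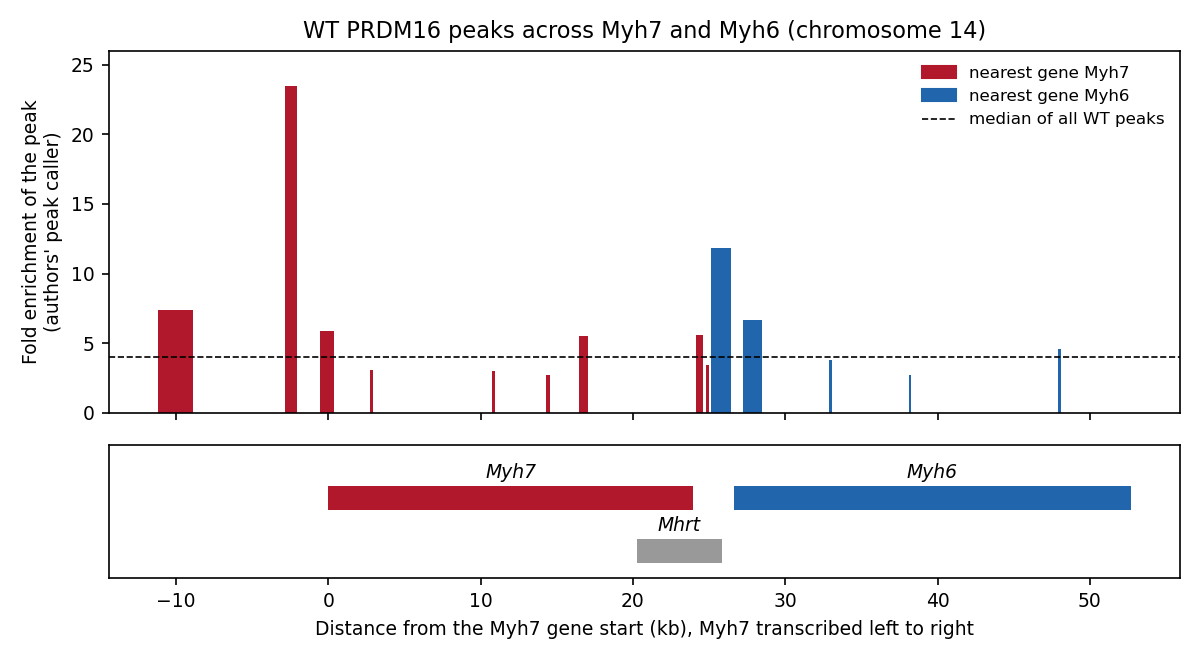
Fold enrichment of each WT PRDM16 peak across the heavy chain genes, plotted against distance from the Myh7 start in kb, with bar width equal to peak width and gene bodies drawn below. The peak 2340 bp before Myh7 reaches 23.5, the peak between the genes 11.8, and peaks with a summit inside either gene range from 2.70 to 6.65, around the dashed median of all WT peaks (4.004).

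Myl2 carried peaks along its whole gene body on chromosome 5. The strongest, at 122092517 to 122094027, had a fold of 21.0 (rank 21 of 17587), and the next, at 122094307 to 122095118, had a fold of 12.3 (rank 238). Further inside the gene 5 peaks had folds from 3.49 to 6.85, 3 of them where Myl2 and Ccdc63 overlap. Their distance from any unlisted start was not examined. Myl3, the essential light chain partner of Myl2, had folds of 7.41 at the promoter (chromosome 9, 110762992 to 110763836), 4.27 inside the gene and 4.27 at a site 11764 bp outside. The strongest peak of Myl4, at 104576773 to 104577597 on chromosome 11, had a fold of 11.8 (rank 294). It lay within the gene body, 26494 bp after the only listed start, and its distance from any unlisted start was not examined. The other 4 peaks of Myl4 had folds from 3.95 to 5.73. Myl7 had the lowest values among the members: 4.85 at a site 7343 bp outside the gene (5889006 to 5889590), 3.04 and 2.76 at sites 4753 and 4117 bp outside, and 2.28 at the promoter (5898821 to 5899105), which ranked 17387 of 17587. The single peak of Mybpc3, on chromosome 2 at 91116995 to 91119224, had a fold of 10.2 (rank 495) and a width of 2230 bp, ranked 5 of all WT peaks.

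Among the 34 peaks 6 had a fold of at least 10, against 2.95% of all WT peaks, and 17 had a fold of at least 5, against 26.1%. Their median fold was 4.95 and their median width 541 bp, against 4.004 and 298 bp over all WT peaks. Ventricular genes had 19 peaks with a median fold of 5.56, of which 3 reached 10, and atrial genes had 14 with a median of 4.31, of which 2 reached 10. Of 22 peaks inside a member gene, 13 were ventricular and 9 atrial. The share of all WT peaks inside a protein-coding gene was 58.9%. The peak list gives a single value per peak, so that these folds carry no replicate error, and the 3 genes of each chamber are not replicates.

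**Figure D2:**
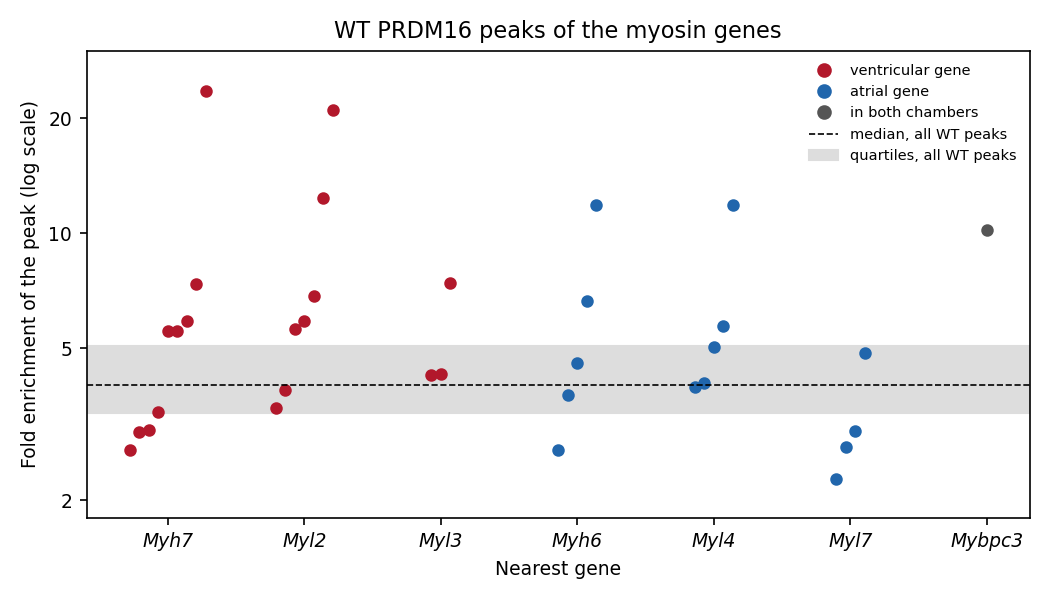
Fold enrichment of every WT peak (log scale) by nearest gene, with ventricular genes in red, atrial genes in blue and Mybpc3 in grey, against the median and quartiles of all WT peaks. Myh7 and Myl2 each have a peak above 20, Myh6, Myl4 and Mybpc3 one above 10, and all 4 peaks of Myl7 stay below 5.

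Of the 34 peaks 0 shared even 1 bp with a knockout peak. This count allows a share of up to 8.82% (3 counts of the total), and 1.12% of all WT peaks overlapped one. The nearest summit of the 330 knockout peaks was 975701 bp away, on the chromosome of Mybpc3. The knockout had 1 library and the lists give no value for each library, and this difference was not tested. The limit covers counting error only.

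Values in LV and RV are reads in each of 4 libraries, called LV library A and B and RV library A and B, since the table does not tell which is replicate 1 or 2. They were worked out from the ventricle means of the deposited table and scaled by the authors' factors (normalized reads). LV library A had 330443 reads within WT peaks and LV library B 184244, while RV library A had 281797 and RV library B 267808. Labels do not say whether the pools came from separate litters, so that p-values measure the spread between these pools. Fewer cells bound by PRDM16 and less PRDM16 per cell cannot be told apart in such pools.

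Myh7, the heavy chain of the embryonic ventricle, had the peak with the most normalized reads per kb of peak width. At its upstream peak LV libraries A and B had 94.5 and 89.4 normalized reads and RV libraries A and B had 107 and 108. Both RV values lay above both LV values there. In limma, with moderated variances over all 17587 regions and Benjamini-Hochberg adjustment, the log2 of RV over LV was 0.22 (SE 0.332, 95% interval -0.46 to 0.90, adjusted p = 0.959). The promoter peak of Myh7 had 29.8 and 23.4 in LV and 24.2 and 21.2 in RV. LV and RV overlapped there, with a log2 of -0.21 (interval -0.90 to 0.47).

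Myl2, the regulatory light chain of the ventricle, had lower means in RV at 7 of 7 peaks. Its strongest peak had 132 and 92.3 normalized reads in LV and 101 and 95.5 in RV. The ventricles overlapped there, since LV library B was the lowest of the 4. The second peak of Myl2 had 65.5 and 61.5 in LV and 52.0 and 48.2 in RV, and the third had 58.1 and 48.35 in LV and 42.4 and 41.5 in RV. At these peaks both LV libraries lay above both RV libraries. Log2 RV over LV in limma was -0.16 (SE 0.340, interval -0.86 to 0.53), -0.34 (SE 0.313, -0.98 to 0.30) and -0.33 (SE 0.314, -0.97 to 0.31) at the 3 peaks, with adjusted p of 0.968, 0.906 and 0.912. Values at the other 4 peaks were -0.49, -0.33, -0.30 and -0.05, and leaving out RV library B turned the direction of all 4 (to 0.43, 0.07, 0.12 and 0.05). The 7 peaks share a gene and the same 4 libraries, so that they are not 7 separate observations.

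Among the essential light chain genes the ventricles overlapped at the strongest peaks and did not overlap at 2 weaker peaks of Myl4. At the promoter of Myl3, LV had 33.5 and 22.0 normalized reads and RV had 28.6 and 23.2, and the ventricles overlapped (log2 -0.07, SE 0.338, interval -0.76 to 0.61). At the strongest peak of Myl4, LV had 75.2 and 55.7 and RV had 74.5 and 63.7, again with overlap (log2 0.09, SE 0.322, interval -0.57 to 0.75). The Myl4 promoter peak that it shares with Cdc27 had 17.1 and 14.7 in LV and 4.33 and 11.6 in RV. Both LV values were above both RV values there, with a log2 of -1.04 (SE 0.4503, interval -1.96 to -0.12, adjusted p = 0.726). Without RV library A it was -0.42 (interval -1.48 to 0.64) and without RV library B -1.66, and without LV library A the interval also included 0 (-2.01 to 0.14). A narrow peak at 104578498 to 104578672 lay inside Myl4, 27913 bp after the only listed start. It had 6.70 and 7.33 in LV and 3.46 and 0.0 in RV, the last being a count of 0. Its log2 was -1.92 (adjusted p = 0.682), and -3.57 and -0.88 at pseudocounts of 0.1 and 5, -3.001 without RV library A and -0.84 without RV library B (interval -2.32 to 0.64).

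Myl7, the regulatory light chain of the atrium, had higher RV values at the promoter. LV libraries A and B had 3.72 and 8.79 normalized reads there (5 and 6 reads) and RV library A had 9.53 (11 reads) and RV library B 14 reads, or 13.505 normalized. Both RV values lay above both LV values, and the log2 was 0.86 (SE 0.496, interval -0.15 to 1.87, adjusted p = 0.810). It was 0.34 without LV library A (interval -0.67 to 1.34) and 1.39 without LV library B (interval 0.24 to 2.54, adjusted p = 0.668). The site 4117 bp outside Myl7 had 5.95 and 8.79 in LV and 14.7 and 13.505 in RV, a log2 of 0.87 (SE 0.436, interval -0.02 to 1.76, adjusted p = 0.786). At the strongest Myl7 site the means went the other way (14.9 and 22.0 in LV, 16.5 and 10.6 in RV, log2 -0.42, interval -1.21 to 0.36), and the ventricles overlapped.

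At the peak between Myh6 and Myh7, LV had 114 and 93.8 normalized reads and RV had 108 and 74.3, with a log2 of -0.20 (SE 0.339, interval -0.89 to 0.49). At the promoter of Myh6, LV had 87.1 and 46.9 and RV had 88.3 and 58.8, with a log2 of 0.17 (SE 0.343, interval -0.53 to 0.87). The Mybpc3 peak had 121 and 86.4 in LV and 119 and 87.8 in RV, a log2 of -0.01 (SE 0.343, interval -0.70 to 0.69). In these 3 peaks the libraries of each ventricle differed from one another by more than the ventricle means did.

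Of the 34 regions, 0 had an adjusted p under 0.05 in the authors' deposited table, as did 0 of all 17587 regions (0.0%). Unadjusted, 0 of the 34 had a p under 0.05 in the authors' deposited table, against 0.483% of all regions. The smallest of these was 0.147, at the narrow Myl4 peak. In limma 0 of the 34 had an adjusted p under 0.05, against 0.0284% of all regions (5 of 17587), and 2 had an unadjusted p under 0.05, both at Myl4, against 6.32%. Both RV libraries were above both LV libraries at 5 regions of the 34 (17.6% of all regions), 2 of Myh7, 2 of Myl7 and 1 of Myh6. The reverse held at 4 (17.9% of all regions), 2 of Myl2 and 2 of Myl4. Neither count was above the share in all regions.

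**Figure D3:**
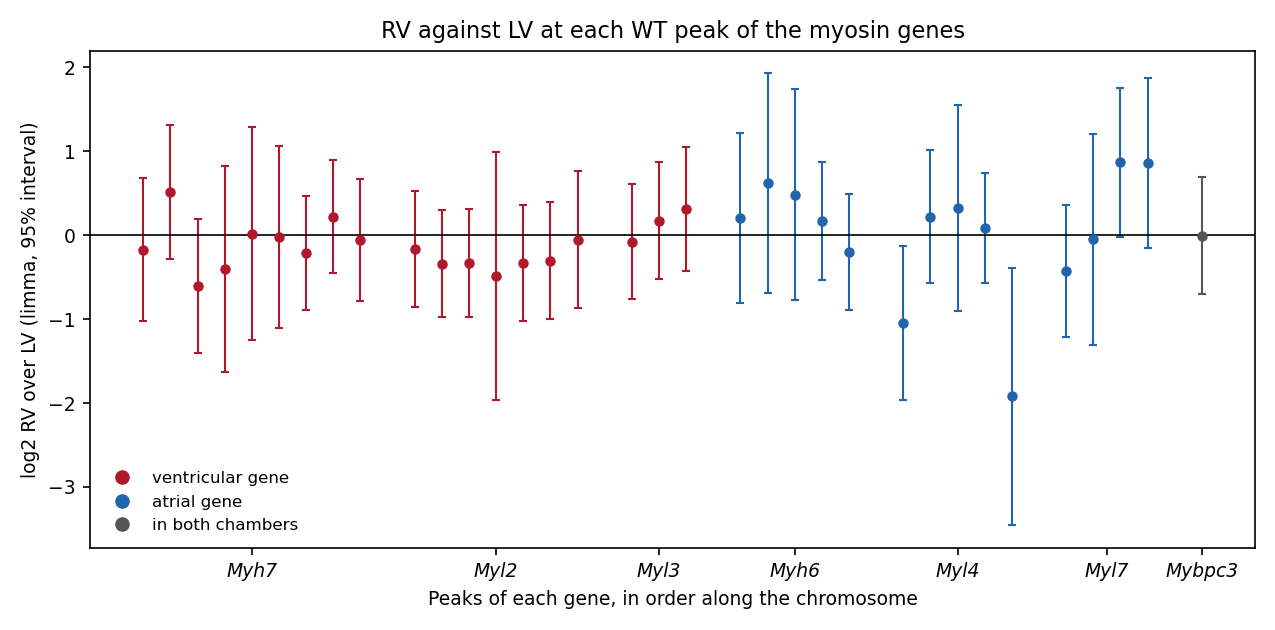
Log2 of RV over LV with limma's 95% interval at each of the 34 WT peaks, in chromosome order within each gene, with ventricular genes in red, atrial genes in blue and Mybpc3 in grey. All 7 Myl2 estimates lie below 0, the Myl7 promoter and the site 4117 bp outside Myl7 lie at 0.86 and 0.87, and 2 of the 34 intervals, both at Myl4, exclude 0.

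The ratio of ventricular to atrial reads was lower in RV by a small margin, and was not lower when Myl2 was left out. No other gene was left out. In the authors' deposited table RV was lower at 14 of 19 ventricular peaks and 5 of 14 atrial peaks, against 50.2% of all regions. The ventricular ones were 7 of 7 at Myl2, 6 of 9 at Myh7 and 1 of 3 at Myl3. The atrial ones were 1 of 5 at Myh6, 2 of 5 at Myl4 and 2 of 4 at Myl7. Peaks of the same gene are not separate observations. The median log2 of RV over LV in the authors' deposited table was -0.16 for ventricular, 0.14 for atrial and -0.0028 for all regions. Summed over peaks, ventricular genes had 2.02 times (library A) and 2.04 times (library B) the reads of atrial genes in LV, and 1.81 times (library A) and 1.94 times (library B) in RV. Ventricular peaks were more numerous and wider, with 13.2 kb in all against 7.11 kb. Per kb of peak, ventricular and atrial genes had 57.2 and 52.4 normalized reads in LV library A, 45.1 and 41.0 in LV library B, 51.9 and 53.1 in RV library A and 43.1 and 41.1 in RV library B. Counting only peaks within 10000 bp of their nearest gene, the ratio of summed reads was 1.58 and 1.71 in LV and 1.43 and 1.58 in RV. With any gene within 50000 bp it was 1.44 in both LV libraries and 1.33 and 1.37 in RV. That setting counted 32 ventricular and 29 atrial peaks among 48 in all. Peaks near both Myh6 and Myh7 entered both sums, which draws the ratio toward 1. On the log2 scale the ratio over the 34 peaks was 1.02 ± 0.00766 in LV and 0.91 ± 0.0730 in RV (SD, n = 2 each), a difference of -0.11. Both LV libraries lay above both RV libraries in this ratio. Without Myl2, an alternative chosen after the data were seen, the ratios were 1.08 in both LV libraries and 1.05 and 1.13 in RV, and the difference was 0.012. With only peaks whose -log10 q reached 5 it was -0.031, and LV and RV overlapped. With 2 libraries a side the difference was not tested.

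Density of reads, taken over the full width of each strongest peak, was highest at Myh7. Its upstream peak had 107 to 129 normalized reads per kb over the 4 libraries, and no other strongest peak reached 107. Next were Myl4 (67.5 to 91.1), Myl2 (61.1 to 87.2) and Myh6 (53.9 to 82.6), whose ranges overlapped. Mybpc3 had 38.8 to 54.4, Myl3 26.01 to 39.6 and Myl7 18.1 to 37.6 per kb, with each range overlapping the next. Fold enrichment in whole ventricles ordered Myl2 far above Myl4 (21.0 and 11.8), while reads per kb did not separate them. The first is the peak caller's ratio for the peak and the second a mean over its full width. Widths of the strongest peaks were 835 bp at Myh7, 1511 bp at Myl2, 1378 bp at Myh6 and 2230 bp at Mybpc3. In normalized reads per peak Myh7 was not apart, with a mean over the 4 libraries of 99.6. The means were 105 at Myl2, 104 at Mybpc3 and 97.5 at Myh6, and lower at Myl4 (67.2), Myl3 (26.8) and Myl7 (16.0).

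**Figure D4:**
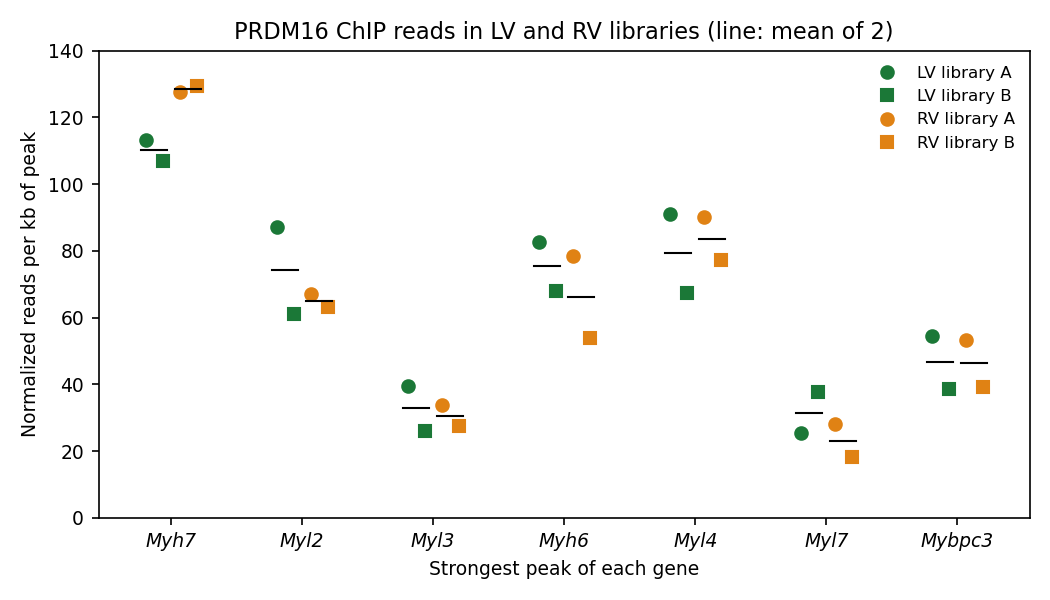
Normalized PRDM16 reads per kb at the strongest peak of each gene in LV libraries (green) and RV libraries (orange), with circles for library A, squares for library B and a line at the mean of each ventricle. Myh7 is the densest in all 4 libraries, and in Myl2, Myl3, Myh6, Myl4 and Mybpc3 library A lies above library B in both ventricles.

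A feature of the libraries moved with these values. LV library A lay above LV library B at 23 of the 34 regions (52.2% of all regions), and RV library A above RV library B at 25 (49.8% of all regions). The A libraries are those with more reads. Over all WT peaks these shares varied with the mean of normalized reads. They were 49.2% and 46.6% below 10, where 11 of the 34 regions lie, and 55.9% and 55.1% from 10 to 30, where 13 lie. From 30 to 80, with 5 of the 34, they were 70.5% and 62.4%, and from 80 to 200, with 5 more, 51.0% and 37.5%. Its part in the LV and RV values was not tested.

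Other genes of the myosin family and the sarcomere, from lists chosen with earlier results of these data known, gave a background for the 7 genes. Over all protein-coding genes 32.9% were nearest to a WT peak. Among 11 other myosin heavy chain genes 5 were: Myh10 (strongest fold 8.74) and Myh9 (5.19), the nonmuscle forms, Myh11 (8.49), the smooth muscle form, Myh7b (7.62) and Myh3 (4.89), the embryonic skeletal form. The skeletal genes Myh1, Myh2, Myh4, Myh8 and Myh13 had no peak, nor did Myh14. Of 7 other light chain genes 6 had a peak, led by Myl12b (16.2), a nonmuscle regulatory chain, and Mylpf (14.5), the regulatory chain of fast skeletal muscle. The others were Myl1 (4.70), Myl12a (4.46), Myl6b (3.45) and Myl6 (2.49), and Myl9 had none. Thick filament partners had a peak at 15 of 16 genes, with Ttn (14.7), the titin gene, Mybphl (11.2), a relative of Mybpc3, Mylk3 (10.3), the cardiac kinase of the regulatory light chain, Smpx (9.54), Myom3 (9.28), an M-band protein, and Unc45b (7.72), a myosin chaperone, in front. Thin filament genes had one at 9 of 10, led by Tnni1 (13.3), Actc1 (13.1), Tnnt2 (11.1), Tpm1 (8.69), Tmod1 (8.58) and Tnni3 (7.36). The strongest peaks of Myh7 and Myl2 had a higher fold than those of all genes in these lists, and that of Myl7 had a lower fold than most of them.

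Marker lists of chambers and of other cells were counted in the same way. Atrial markers outside the myosin genes had a peak at 5 of 6: Nppa (10.1), Nr2f2 (7.59), Nr2f1 (5.94), Stard10 (4.27) and Kcna5 (4.01), with none at Sln. The ventricular markers Hey2 (12.2) and Irx4 (7.59) both had one. Skeletal muscle genes had one at 2 of 8, Myog (6.73) and Ckm (3.71). Endothelial genes had one at 4 of 4, Pecam1 (9.11), Cdh5 (6.74), Kdr (6.66) and Tek (4.71). Many of these peaks were nearest to their gene only across a long distance: the peak named lay 210670 bp from Hey2, 89118 bp from Irx4, 84774 bp from Nr2f2, 611005 bp from Nr2f1, 161291 bp from Kcna5, 227881 bp from Cdh5 and 13032 bp from Myog. The Myh10 peak lay 33831 bp from its gene. Of the genes in these marker lists with a promoter window, a WT peak covered one at 1 of 5 atrial, 0 of 2 ventricular, 0 of 4 skeletal muscle and 0 of 2 endothelial genes. In the sarcomere and myosin lists above it was more common. A peak covered a window at 7 of 10 thin filament genes, 7 of 13 thick filament partners, 3 of 10 other heavy chain genes and 2 of 7 other light chain genes. The lists were not matched for gene activity or for surrounding sequence.

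The gene whose strongest peak was most like that of each member was found by the Euclidean distance in log2 of normalized reads with 1 added over the 4 libraries, among 7147 genes with a peak outside the lists. It was Kcnj8, a potassium channel, for Myl3 (distance 0.133) and Popdc2, a membrane protein of muscle, for Myl4 (0.133). Notch2, a receptor, came nearest to Myl7 (0.151) and Atp2a2, the calcium pump of the sarcoplasmic reticulum, to Myl2 (0.196). Gadd45g was nearest to Myh7 (0.202), Cryab, a small heat shock protein, to Mybpc3 (0.262) and Tox, a nuclear protein, to Myh6 (0.280). The fold of the Atp2a2 peak was 22.8, beside 21.0 for Myl2, and that of Popdc2 was 17.9, beside 11.8 for Myl4.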

How the data were processed

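PRDM16 ChIP and input libraries of mouse ventricles were described by the labels. Per the submitters' processing notes, which state no role for them, the tools were DESeq2, HOMER, MACS2 (2.1.1.20160309) and BWA (0.7.12-r1039) and the genome GRCm38 (mm10). How replicates were pooled, peaks filtered and regions tested was not given in the sources used here. Deposited peak lists hold a score, a fold enrichment (ratio of ChIP to background), the -log10 p and -log10 q, and a summit. Per the file headers the deposited table holds a signal for LV and RV, their log2 ratio and p-values before and after adjustment.

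Each LV and RV value less 0.5 was solved as the average over its libraries of a whole read number times a scale, with 1 solution for 100.0% of 17587 regions (tolerance 1e-07), and a read was worth 0.744 (LV library A), 1.47 (LV library B), 0.866 (RV library A) or 0.965 (RV library B) normalized reads. limma 3.58.1 (R 4.3.3, mean-variance trend) was fitted in all regions to log2 normalized reads (pseudocount 1), without a filter on low values, with Benjamini-Hochberg adjustment and a threshold of 0.05. This and the solution for reads were tested on simulated data. Genes and starts came from RefSeq tables of GRCm38.p6, where all 7 members were found, and peaks with tied nearest genes were counted for each. All else was done in Python 3.11.15 with numpy 2.4.6, pandas 2.3.3, matplotlib 3.10.9 and scipy 1.17.1. The members, lists and tests were chosen with earlier results of these data known. All members and their peaks were named, up to 6 genes of each other list by strongest peak, and the most alike gene of each member. Other settings were the assignment of peaks, thresholds, pseudocount, minimum of reads, scaling and leaving out each library. Values of single input or whole-ventricle libraries were not used. The number of reads limits the precision, with a median per peak of 10 (LV library A), 6 (LV library B), 9 (RV library A) and 8 reads (RV library B).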

Additional observations from a re-analysis of the deposited data

How the results depend on the processing

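The members had 17 peaks at a fold enrichment of at least 5 instead of 34, and between 24 and 48 under the other assignments and thresholds; all 7 genes had a peak in each, except Myl7 at a fold of at least 5. Ventricular and atrial peaks (19 and 14) numbered 32 and 29 with any gene within 50000 bp, 14 and 9 with a -log10 q from 5 upward, and 11 and 5 at that fold. Within 50000 bp, peaks near both Myh6 and Myh7 were counted in both classes. Called regions and knockout overlaps among the members numbered 0 under every alternative run. Over all regions limma called 5, and 1 at a pseudocount of 0.1, 14 at 5, 8 at a mean of at least 8 reads, 90 without LV library A, 22 without LV library B and 0 without RV library A or RV library B (667 and 561 at an unadjusted p under 0.05). The library left alone in a ventricle is assumed to vary like the others. The difference of RV and LV in log2 ventricular over atrial reads (-0.11) became -0.031 with a -log10 q from 5 upward, reversed to 0.012 without Myl2 (chosen after seeing the data), and ranged from -0.16 to -0.06 as single libraries were left out. At Mybpc3 the log2 of RV over LV reversed to 0.032 at equal total reads. Single libraries were left out at 21 regions: the strongest and promoter peaks, all Myl2 peaks, and the regions where LV and RV did not overlap. Without overlap (5 regions with RV above LV, 4 with LV above RV) leaving out 1 library cannot change the direction. The direction changed at 10 of the 21. There the ranges were -0.25 to 0.24 at Mybpc3, -0.27 to 0.61 at the Myh6 promoter and -0.47 to 0.066 at the peak between Myh6 and Myh7. They were -0.42 to 0.091, -1.41 to 0.43, -0.74 to 0.075, -0.73 to 0.12 and -0.48 to 0.37 at Myl2 peaks 1, 4, 5, 6 and 7, -0.37 to 0.22 at the Myl3 promoter and -0.12 to 0.30 at the strongest Myl4 peak. At the promoters of Myl4 (-1.66 to -0.42) and Myl7 (0.34 to 1.39) LV and RV did not overlap, so the direction could not change. It could change but was kept at the strongest Myl7 site (-0.72 to -0.13) and the Myh7 promoter (-0.38 to -0.05). No paired analysis was possible because the LV and RV columns carry no replicate numbers. With a median of 6 to 10 reads per peak, depth limits what can be seen at narrow peaks.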
